A study of Homo sapiens with 12 samples.

Results

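The genes described here are 7 members of the vascular endothelial growth factor (VEGF) family and its receptors in RT4, an established human bladder cancer line: the ligands PGF, VEGFA, VEGFB and VEGFC, the receptor FLT1 and the co-receptors NRP1 and NRP2. They were taken by symbol, matched to their Ensembl identifiers, and all 7 of 7 were found in both count tables, which hold 61860 and 62700 genes. The genes were selected on results of these same libraries, since the list was drawn up with the differences in both comparisons known, among them that of PGF in resistant cells. Their values are therefore given as a description, with errors and no p-value.

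RNA of RT4 cells was sequenced in 2 experiments of 6 libraries each. In the overexpression experiment, 3 libraries came from cells with a Flag-ITGB4 plasmid, which encodes an integrin beta subunit, and 3 from cells with the empty Flag vector. In the resistance experiment, 3 libraries came from a cisplatin-resistant RT4 line labelled with cisplatin treatment (a platinum drug used against bladder cancer), and 3 from parental RT4 cells labelled as treated with PBS. The resistant and parental cells are both labelled wild type, and no dose or time is given. The media differ, being Mycoy's 5A in the labels of the overexpression experiment and MEM in those of the resistance experiment, so levels in different tables carry a medium and a counting difference besides the cells. The resistant cells are a single line, and all 3 of its libraries carry the cisplatin label. The resistant line and cisplatin exposure therefore cannot be told apart, and differences in resistant cells below refer to both together. In both groups of the overexpression experiment, a label of replicate 2 names ITGB5 and one of replicate 3 names ITGB6, while all titles name ITGB4. The parental columns were assigned by inference, as described with the processing, and are called libraries a, b and c.

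Total counts per library lay between 22701466 and 33352045 in the overexpression table and between 31824582 and 38199946 in the resistance table. Levels are given as CPM with TMM scaling (counts scaled to a common library size), and means as mean ± SD with n = 3 per group. Of 11 urothelial markers, 9 passed the filter on low counts in each table, while KRT20 had no count. ITGB4 averaged 1427 ± 53.6 CPM with its plasmid and 869 ± 11.0 CPM with the vector, and 837 ± 9.37 CPM in resistant cells and 600 ± 2.09 CPM in parental cells. Among all genes tested, edgeR's quasi-likelihood test called 72.2% in the overexpression experiment, 36.5% higher and 35.7% lower, and 54.5% in the resistance experiment, 26.8% higher and 27.7% lower, at an adjusted p under 0.05. With library sizes alone in place of TMM, 6548 genes were called higher and 3111 lower in the resistance experiment, against 4520 and 4679.

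VEGF ligands are secreted cystine-knot dimers that bind receptor tyrosine kinases on endothelial cells. VEGFA binds FLT1 (VEGFR1) and KDR (VEGFR2), and signalling through KDR drives the growth and permeability of blood vessels. PGF (placental growth factor) and VEGFB bind FLT1 but not KDR, VEGFC acts mainly through FLT4 (VEGFR3) on lymphatic vessels, and the neuropilins NRP1 and NRP2 bind several of these ligands as co-receptors and also bind class 3 semaphorins. Carcinoma cells, including those of the bladder, are a known source of VEGFA, whose transcription is raised by hypoxia-inducible factors (HIF).

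The DNA before the RefSeq transcription start of PGF, FLT1 and NRP2 is shown because PGF had the largest difference of the 7 and because FLT1 and NRP2 differed in opposite directions in the 2 experiments. FLT1 did not pass the filter on low counts in either experiment, and its directions rest on few counts. The sequences run 5′ to 3′ on the gene's strand from 250 bases before the start, without bases of the gene's GENCODE 29 exons. They cover chr14:74955785-74956014 (minus strand) for PGF, chr13:28495146-28495378 (minus strand) for FLT1 and chr2:205682251-205682499 (plus strand) for NRP2, in GRCh38.p14. The PGF and FLT1 stretches lie outside the GENCODE 29 gene. The NRP2 stretch lies inside it, downstream of the gene's start at 205681990 and outside its exons.
PGF: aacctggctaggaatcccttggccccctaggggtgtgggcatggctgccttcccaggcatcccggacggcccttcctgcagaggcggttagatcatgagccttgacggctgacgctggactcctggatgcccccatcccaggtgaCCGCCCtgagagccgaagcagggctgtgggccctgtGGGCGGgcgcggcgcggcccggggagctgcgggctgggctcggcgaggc
FLT1: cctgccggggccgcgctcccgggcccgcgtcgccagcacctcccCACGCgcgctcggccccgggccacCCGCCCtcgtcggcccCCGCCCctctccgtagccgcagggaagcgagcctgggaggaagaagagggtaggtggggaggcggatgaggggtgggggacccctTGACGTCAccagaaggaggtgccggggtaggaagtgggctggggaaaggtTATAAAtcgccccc
NRP2: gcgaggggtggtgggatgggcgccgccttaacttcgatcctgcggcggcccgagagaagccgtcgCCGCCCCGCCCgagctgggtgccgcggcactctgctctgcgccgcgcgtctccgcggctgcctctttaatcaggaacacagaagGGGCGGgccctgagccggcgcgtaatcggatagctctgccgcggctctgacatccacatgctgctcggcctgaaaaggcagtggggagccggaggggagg

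Capitals mark matches on either strand to GGGCGG (the GC box), ACGTG or GCGTG (cores of the hypoxia response element), TGCACNC or TGCGCNC (metal response elements), TTCNNNGAA (a STAT site), TGAGTCA or TGACTCA (AP-1), TATAAA and TGACGTCA (the cAMP response element, searched after the FLT1 sequence was seen). PGF has 2 GC boxes, NRP2 has 3 of which 2 share a base, and FLT1 has 2 GC boxes, 1 GCGTG on the other strand, 1 TATAAA and 1 TGACGTCA. The other motifs have no match in these stretches, which are shorter than the 300-base windows. The full window of PGF also holds 1 GCGTG beyond the printed stretch. That of FLT1 holds 3 GC boxes, the last running past the printed stretch. The shares that follow are over full windows. Of 35116 RefSeq windows of 300 bases around a start, 45.0% hold a GC box, 36.5% GCGTG, 21.4% ACGTG, 20.0% TGCGCNC, 12.1% TGCACNC, 11.5% TATAAA, 7.66% the STAT letters, 4.95% the AP-1 letters, of which TGAGTCA and TGACTCA are the same site read on opposite strands, and 1.85% TGACGTCA. The stretches are rich in G and C, at 70.9% in PGF, 73.4% in FLT1 and 69.9% in NRP2. RefSeq lists a further PGF start downstream, and its window at chr14:74955548-74955847 overlaps the first and holds 4 GC boxes and 1 GCGTG over its 300 bases. The GCGTG is the same site as in the first window, and the windows share a GC box. The further window was not printed because it runs into exons. A window was found for 5 of the 7 genes, namely PGF, VEGFB, VEGFC, FLT1 and NRP2.

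PGF (ENSG00000119630, chromosome 14, 74941834 to 74955784, minus strand in GENCODE 29 on GRCh38) was higher in both experiments. It lay at 31.4, 23.7 and 22.0 CPM in resistant libraries 1, 2 and 3, against 1.34, 1.24 and 1.12 CPM in parental libraries a, b and c. Every resistant library lay far above every parental one, and resistant library 1 was the highest. The means were 25.7 ± 5.00 CPM in resistant cells and 1.23 ± 0.107 CPM in parental cells, a 20.8-fold difference (log2 4.38 ± 0.157). The values rest on 2801 counts in the resistant libraries and 129 in the parental ones (ratio 20.7, exact binomial 95% interval 17.3 to 24.8). The ± after a log2 fold change is an approximate standard error, computed from the F statistic of the fit. In bulk RNA, more cells expressing a gene and more RNA per cell cannot be told apart.

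In the overexpression experiment PGF lay at 30.6, 27.4 and 27.9 CPM in ITGB4 plasmid libraries 1, 2 and 3, against 12.2, 12.1 and 12.4 CPM in the vector libraries. The groups did not overlap, and the vector libraries differed by little among themselves. PGF was 2.33-fold higher with the plasmid, at 28.6 ± 1.71 CPM against 12.2 ± 0.116 CPM (log2 1.22 ± 0.057). Both control groups thus held PGF at unlike levels, 12.2 CPM in vector cells and 1.23 CPM in parental cells. These levels were scaled within separate tables, so the gap was not tested.

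The libraries were also examined for markers of other cells. The 6 trophoblast markers, from the cells best known for PGF, summed to 0.942 to 1.31 CPM with the plasmid and 0.418 to 0.522 CPM with the vector, and to 0.179 to 0.394 CPM in resistant and 0.0835 to 0.533 CPM in parental libraries. CSH1 and PSG1 had no count in either table. GCM1, also listed among the factors described for VEGFA or PGF, was called higher with the plasmid (log2 3.03 ± 0.436). It averaged 0.666 ± 0.201 CPM with the plasmid, from 53 counts, and 0.0799 ± 0.0228 CPM with the vector, from 7 counts. In the resistance experiment GCM1 did not pass the filter, with 25 counts in resistant and 19 in parental libraries. The 6 leukocyte markers summed to under 1 CPM in every library. The 8 fibroblast and mural markers summed to 29.7 to 32.5 CPM with the plasmid and 51.3 to 55.4 CPM with the vector, and to 7.85 to 8.30 CPM in resistant and 13.0 to 13.5 CPM in parental libraries. One collagen carried most of that difference in each table, COL3A1 at 18.2 ± 0.643 CPM with the plasmid and 45.9 ± 2.21 CPM with the vector, and COL1A1 at 4.67 ± 0.689 CPM in resistant and 11.7 ± 0.129 CPM in parental cells. The other called markers of the list rose, namely ACTA2 and COL1A1 with the plasmid and ACTA2 and COL3A1 in resistant cells. DCN and LUM averaged under 1 CPM in every group. The part of these cells in the PGF difference was not tested.

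VEGFA (ENSG00000112715, chromosome 6, 43770184 to 43786487, plus strand), the main ligand of endothelial growth, was lower with the plasmid and did not stand apart in resistant cells. It lay at 833, 813 and 835 CPM in ITGB4 plasmid libraries 1, 2 and 3, against 1429, 1401 and 1424 CPM in the vector libraries. All plasmid libraries were below all vector libraries, with a narrow spread in each group. The means of 827 ± 12.2 CPM with the plasmid and 1418 ± 14.8 CPM with the vector give a 1.72-fold lower level (log2 -0.78 ± 0.022). In the resistance experiment VEGFA lay at 1663, 1649 and 1669 CPM in resistant libraries, against 1660, 1652 and 1627 CPM in parental libraries. The groups overlapped, and the log2 fold change of 0.01 ± 0.030 was within the spread between libraries. With library sizes alone it was 0.18 and called, and the median of all genes was then 0.182, against 0.018 with TMM. TMM itself sets the bulk of genes near no difference, so these medians cannot decide between the scalings.

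VEGFB (ENSG00000173511, chromosome 11, 64234538 to 64238793, plus strand), a ligand of FLT1 known for roles in heart and fat metabolism, differed little with the plasmid and was moderately higher in resistant cells. In the overexpression experiment it lay at 15.3, 15.2 and 14.1 CPM with the plasmid, against 16.0, 17.6 and 15.8 CPM with the vector. The plasmid libraries lay just below the vector libraries, by -0.15 ± 0.064 on the log2 scale. That small difference was no longer called without plasmid replicate 2 or 3 or vector replicate 2, at -0.16, -0.11 and -0.10, nor with DESeq2, at -0.16. In the resistance experiment VEGFB lay at 20.4, 17.1 and 17.6 CPM in resistant libraries, against 14.4, 14.5 and 13.7 CPM in parental libraries. It was 1.29-fold higher in resistant cells (log2 0.37 ± 0.090), without overlap.

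VEGFC (ENSG00000150630, chromosome 4, 176683538 to 176792727, minus strand), the ligand of lymphatic growth, was moderately higher in both experiments. Plasmid libraries 1, 2 and 3 held 22.1, 19.6 and 20.0 CPM, against 15.9, 14.4 and 14.4 CPM in the vector libraries. The groups were apart, with a 1.38-fold higher level with the plasmid (log2 0.47 ± 0.063). Resistant libraries held 12.3, 13.1 and 11.2 CPM, against 10.3, 7.59 and 9.26 CPM in parental libraries. The lowest resistant library lay close above the highest parental one, and the level was 1.35-fold higher (log2 0.43 ± 0.117). VEGFD, the other lymphatic ligand and not among the 7, was scarce. It averaged 1.04 ± 0.195 CPM with the plasmid and 0.614 ± 0.0585 CPM with the vector (log2 0.72 ± 0.230, edgeR adjusted p = 0.00989), a call lost with DESeq2, with a filter at 1 CPM that left it out, and with a 1.5-fold threshold. In resistant cells it averaged 2.04 ± 0.133 CPM, against 2.00 ± 0.220 CPM in parental cells (adjusted p = 0.929).

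**Figure D1:**
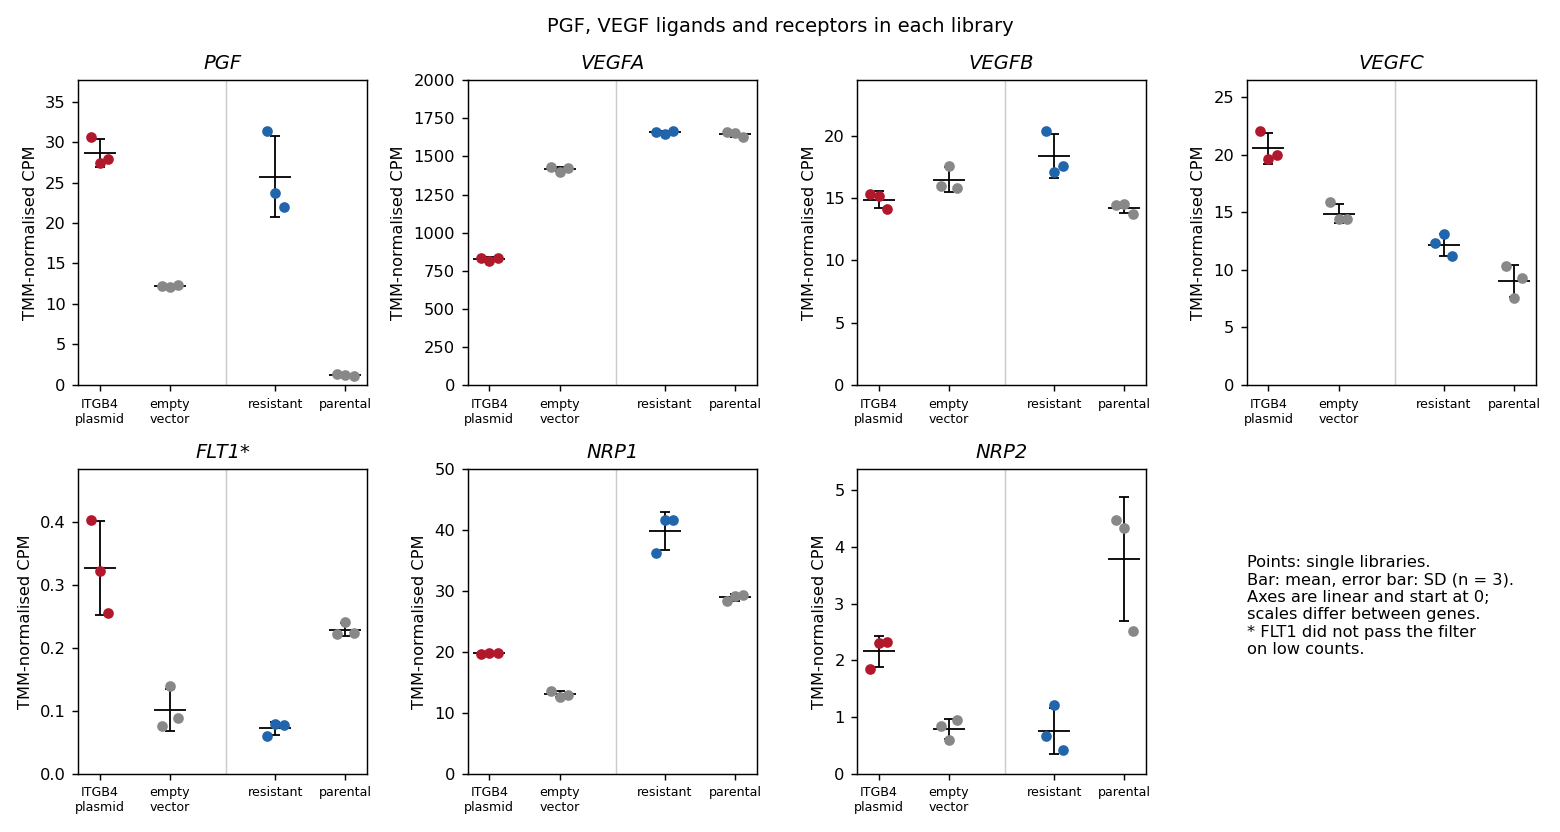
TMM-normalised CPM (vertical axes, linear from 0, scaled per gene) of the 7 genes in each library of the 4 groups, with points for libraries and bars for mean and SD (n = 3). PGF lay at 22.0 to 31.4 CPM in resistant and 1.12 to 1.34 CPM in parental libraries, VEGFA at 813 to 835 CPM with the ITGB4 plasmid and 1401 to 1429 CPM with the vector, and NRP2 differed in opposite directions in the 2 experiments.

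VEGFA was the most abundant ligand per kilobase of exon in every group. Its share of the summed CPM per kilobase of PGF, VEGFA, VEGFB, VEGFC and VEGFD was 71.0% ± 1.01 with the plasmid and 83.7% ± 0.511 with the vector, and 83.8% ± 1.19 in resistant and 89.0% ± 0.409 in parental cells (SD, n = 3 each). PGF held 5.94% ± 0.239 of that sum with the plasmid and 1.75% ± 0.0194 with the vector, and 3.13% ± 0.561 in resistant and 0.161% ± 0.0119 in parental cells. The VEGFA share was lower and the PGF share higher in both experiments. The ratio of VEGFA to PGF in CPM per kilobase was 11.3, 12.3 and 12.4 in plasmid libraries, against 48.4, 47.7 and 47.6 in vector libraries. It was 21.9, 28.8 and 31.3 in resistant libraries, against 513, 552 and 599 in parental libraries. With the plasmid VEGFA was lower and PGF higher, while in resistant cells PGF was higher and VEGFA overlapped with parental cells.

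FLT1 (ENSG00000102755, chromosome 13, 28300344 to 28495145, minus strand), the receptor of PGF, VEGFA and VEGFB, was barely detected and did not pass the filter on low counts in either table. It had 9, 8 and 8 counts in plasmid libraries, against 2, 4 and 3 in vector libraries. The plasmid libraries lay above the vector libraries at 0.327 ± 0.0743 CPM against 0.101 ± 0.0334 CPM, and the summed counts stood at a ratio of 3.15 (95% interval 1.42 to 7.66). Resistant libraries had 2, 3 and 3 counts, against 8, 8 and 8 in parental libraries. The resistant libraries lay below the parental ones at 0.0721 ± 0.0107 CPM against 0.229 ± 0.0102 CPM, and the ratio of summed counts was 0.317 (95% interval 0.123 to 0.730). A gene count cannot separate full-length from soluble FLT1, whose transcript ends early. The intervals cover counting error only.

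KDR, the main signalling receptor of VEGFA, had 0 counts in all 6 libraries of each table, which allows up to 0.0179 CPM over the overexpression libraries and 0.0139 CPM over the resistance libraries. FLT4, the receptor of VEGFC, had 7 counts in plasmid and 2 in vector libraries (ratio 3.96, 95% interval 0.755 to 39.1), and 0 counts in the resistance table, with the same limit as KDR. Neither is among the 7. Among endothelial markers, CDH5, CLDN5, EMCN, PECAM1 and ROBO4 each averaged under 1 CPM in every group, EMCN having no count in the overexpression table and ROBO4 none in the resistance table. The 8 markers summed to 9.67 to 12.1 CPM with the plasmid and 6.96 to 8.61 CPM with the vector, and to 5.05 to 8.05 CPM in resistant and 6.54 to 8.35 CPM in parental libraries. EGFL7, ESAM and VWF each averaged above 1 CPM in every group. The part of the endothelial sum in the FLT1 difference was not tested.

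NRP1 (ENSG00000099250, chromosome 10, 33177492 to 33336262, minus strand), a co-receptor of VEGFA and of SEMA3A, was higher in both experiments. It lay at 19.7, 19.8 and 19.9 CPM in plasmid libraries, against 13.6, 12.6 and 13.0 CPM in vector libraries. The plasmid libraries were nearly equal and all above the vector libraries, a 1.52-fold difference (log2 0.60 ± 0.057). Resistant libraries held 36.2, 41.7 and 41.7 CPM, against 28.3, 29.2 and 29.4 CPM in parental libraries. The groups were apart by a 1.38-fold difference (log2 0.46 ± 0.070). Of the exon bases of NRP1, 4.87% overlap an antisense gene, as do 1.30% of those of VEGFA and 1.06% of those of NRP2. The overexpression counts were made with no strand option, so reads there cannot be assigned to a strand.

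NRP2 (ENSG00000118257, chromosome 2, 205681990 to 205798133, plus strand), a co-receptor of VEGFC and of SEMA3F, differed in opposite directions. It lay at 1.84, 2.30 and 2.33 CPM in plasmid libraries, against 0.837, 0.591 and 0.947 CPM in vector libraries. The lowest plasmid library was above the highest vector library, a 2.71-fold higher level (log2 1.44 ± 0.194). In the resistance experiment it lay at 0.658, 1.21 and 0.414 CPM in resistant libraries, against 4.48, 4.34 and 2.52 CPM in parental libraries. Resistant libraries were all lower, 4.94-fold by the means of the fit (log2 -2.31 ± 0.326), with resistant library 2 and parental library c lying nearest to the other group. The difference between the 2 experiments was not tested for any of the 7 genes.

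**Figure D2:**
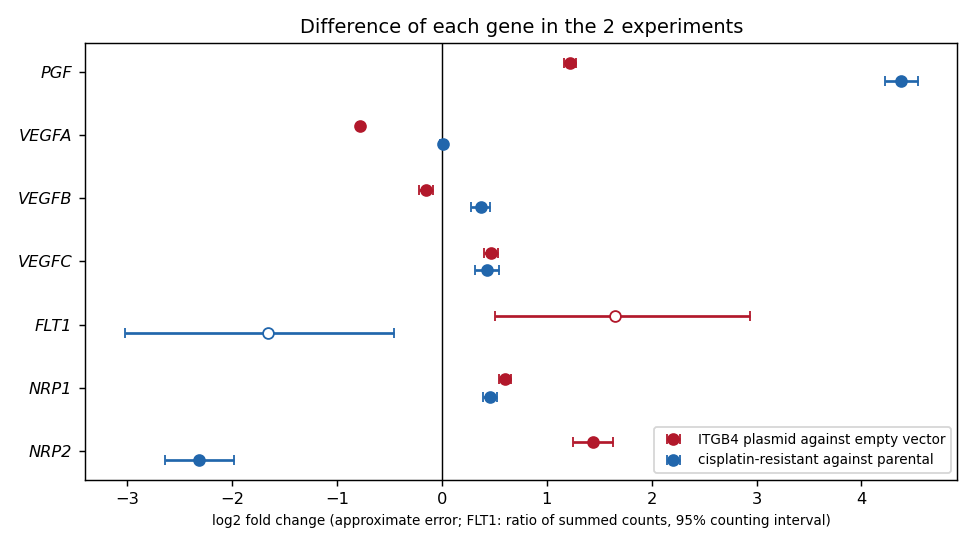
Log2 fold change (horizontal axis) of each of the 7 genes with the ITGB4 plasmid against the vector (red) and in resistant against parental cells (blue). Filled points carry the approximate error of the fit, and open points give FLT1 as a ratio of summed counts with its 95% counting interval. PGF lies at 1.22 and 4.38, VEGFA at -0.78 and 0.01, and NRP2 at 1.44 and -2.31.

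Of the 6 members that passed the filter, the fit called 4 higher and 2 lower with the plasmid (background 72.2%), and 4 higher and 1 lower in resistant cells (background 54.5%). With so many genes called in each comparison, and with the members listed after the results were known, nothing is read from these counts. The libraries of the groups did not overlap for 7 of 7 members in the overexpression experiment, 5 higher and 2 lower, where this held for 74.5% of all genes tested, 37.4% higher and 37.1% lower. They did not overlap for 6 of 7 in the resistance experiment, 4 higher and 2 lower, where this held for 60.8%, 30.3% higher and 30.5% lower. Both member counts include FLT1, which did not pass the filter, while the shares cover only genes that passed it. A test for a change over 1.5-fold called PGF, VEGFA and NRP2 with the plasmid, and PGF and NRP2 in resistant cells.

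Levels of different genes were compared per kilobase of GENCODE 29 exon bases. The order with the plasmid was VEGFA at 57.3 CPM per kilobase, VEGFB at 9.61, VEGFC at 8.51, PGF at 4.80, NRP1 at 1.72, NRP2 at 0.155 and FLT1 at 0.0260. In vector cells it was the same order, with VEGFA at 98.3, VEGFB at 10.7, VEGFC at 6.16, PGF at 2.05, NRP1 at 1.13, NRP2 at 0.0570 and FLT1 at 0.00806. Only VEGFB and VEGFC with the plasmid overlapped between libraries in that experiment. In resistant cells the order was VEGFA at 115 CPM per kilobase, VEGFB at 11.9, VEGFC at 5.05, PGF at 4.31, NRP1 at 3.46, NRP2 at 0.0547 and FLT1 at 0.00574, with VEGFC and PGF overlapping. In parental cells it was VEGFA at 114, VEGFB at 9.19, VEGFC at 3.74, NRP1 at 2.51, NRP2 at 0.272, PGF at 0.206 and FLT1 at 0.0183, with NRP2 and PGF overlapping. PGF thus held the fourth place in resistant cells and the sixth in parental cells. Exon bases cover every annotated isoform, 14431 bases for VEGFA, so levels per kilobase of the expressed isoforms may be higher.

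The other genes of the pathway were taken from 12 lists of 92 genes, whose p-values come from the fit over all genes. The lists were chosen with earlier results of these data known, and most genes named have the smallest p of their list. Their p-values are therefore no fresh test. Over all genes tested, 36.5% were called higher and 35.7% lower with the plasmid, and 26.8% higher and 27.7% lower in resistant cells. The counts per list were not tested against these shares. HIF target genes, among which VEGFA is usually counted, rose in 10 of 10 with the plasmid, with a median log2 fold change of 0.96 against 0.00 over all genes. BNIP3, a mitophagy receptor, rose to 122 ± 1.05 CPM with the plasmid, against 28.6 ± 0.446 CPM with the vector (log2 2.09 ± 0.033, adjusted p = 3.91e-18). LDHA, lactate dehydrogenase, rose to 2434 ± 58.5 CPM with the plasmid, against 899 ± 11.8 CPM with the vector (adjusted p = 4.54e-18). VEGFA was lower in the same plasmid libraries. The count of 10 covers the listed targets only, and was 9 to 10 over omissions of single libraries. Its relation to VEGFA was not tested. In resistant cells 4 of the 10 rose and 3 fell, with LDHA at 729 ± 9.46 CPM in resistant and 1212 ± 11.5 CPM in parental cells and DDIT4, a stress-induced inhibitor of mTOR, at 953 ± 52.1 CPM in resistant and 673 ± 12.6 CPM in parental cells.

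Among oxygen-sensing genes and HIF subunits, 4 rose and 3 fell of 9 tested with the plasmid, and 2 rose and 4 fell of 9 tested in resistant cells. The 2 that rose there were ARNT2 and VHL. VHL, the ubiquitin ligase subunit that binds HIF, rose by only 0.11 on the log2 scale (adjusted p = 0.0389), and the count was 1 without parental library a, b or c, without resistant replicate 3 and with no low-count filter. ARNT2, a HIF partner, fell with the plasmid at log2 -0.99 ± 0.044 and rose in resistant cells at 0.77 ± 0.077. EGLN3, a prolyl hydroxylase that marks HIF for degradation, fell by 0.30 on the log2 scale with the plasmid, and ARNT, the common HIF partner, fell by 0.77 in resistant cells. The metal-responsive factor MTF1, described as an activator of the PGF gene in mouse fibroblasts under hypoxia, rose to 96.5 ± 3.31 CPM with the plasmid, against 46.7 ± 1.36 CPM with the vector (adjusted p = 9.05e-14). It fell to 69.7 ± 6.01 CPM in resistant cells, against 102 ± 5.29 CPM in parental cells (adjusted p = 6.33e-07). Metallothioneins, the best known MTF1 targets, and the zinc exporter SLC30A1 rose in 4 of 4 tested with the plasmid, MT2A at 3.26 ± 0.046 and MT1X at 3.65 ± 0.246 on the log2 scale, while in resistant cells MT2A fell (-0.93 ± 0.060) and SLC30A1 rose (0.36 ± 0.051). Reads of metallothioneins can be shared among close relatives. PGF was higher in both experiments. MTF1 and MT2A rose with the plasmid and fell in resistant cells, while SLC30A1 rose in both (log2 0.42 ± 0.036 with the plasmid). MT1X and MT1F rose with the plasmid and were not called in resistant cells (1.07 ± 0.507 and 0.39 ± 0.543). The relation of these genes to PGF was not tested. STAT3, named in the series title, had a log2 fold change of -0.04 ± 0.023 with the plasmid (adjusted p = 0.141) and fell in resistant cells (-0.45 ± 0.037, adjusted p = 1.74e-08). Of the 8 other transcription factors described for VEGFA or PGF, MTF1 and STAT3 included, 4 rose and 2 fell with the plasmid, and 1 rose and 4 fell of 7 tested in resistant cells. PPARGC1A, a metabolic co-activator that raises VEGFA in muscle, fell with the plasmid (-2.33 ± 0.139).

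**Figure D3:**
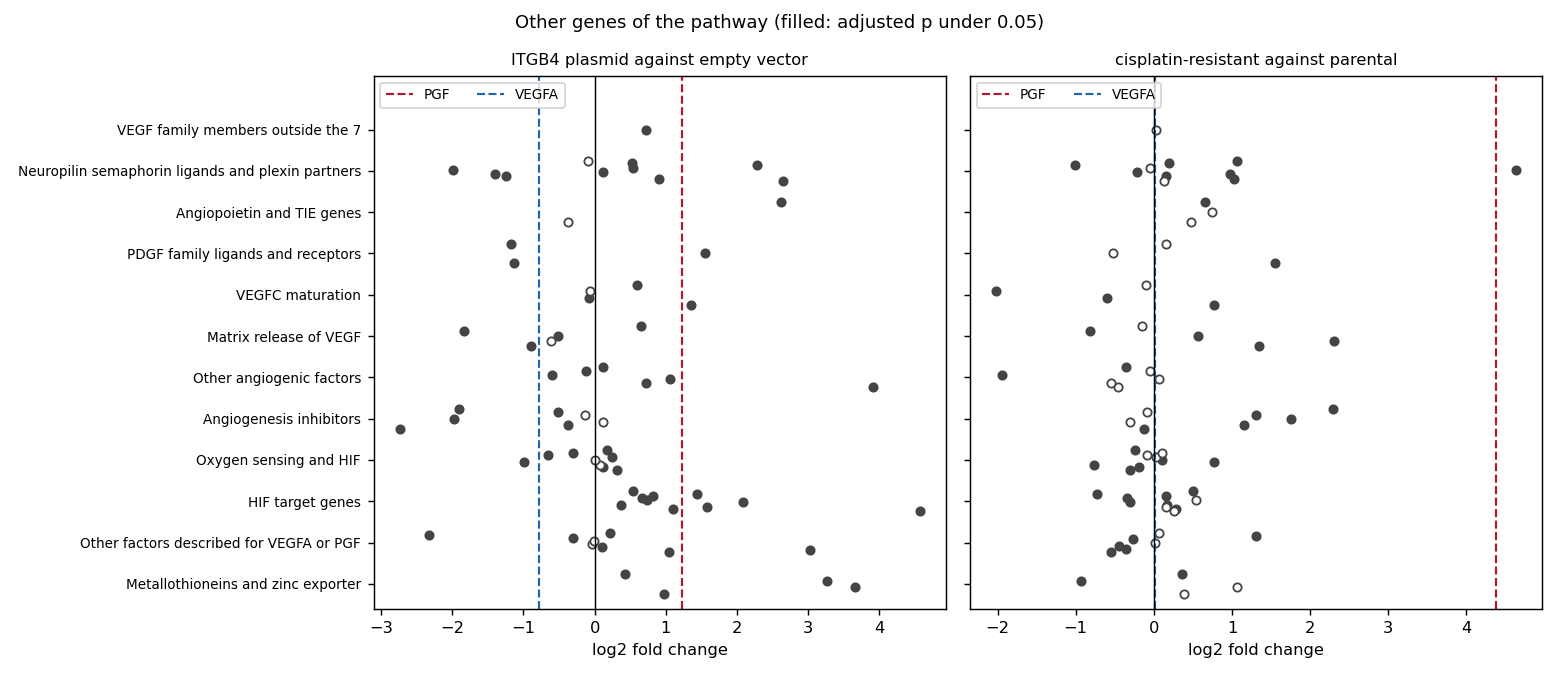
Log2 fold change (horizontal axis) of each tested gene of the 12 lists (rows) with the ITGB4 plasmid against the vector (left) and in resistant against parental cells (right), filled where the adjusted p is under 0.05. Dashed lines give PGF and VEGFA. All 10 listed HIF targets lie right of 0 with the plasmid, where VEGFA lies at -0.78, and in resistant cells PGF at 4.38 lies right of all but SEMA3G.

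Semaphorins and plexins share the neuropilins with VEGF. With the plasmid 6 rose and 3 fell of 10 tested, and in resistant cells 6 rose and 2 fell of 10 tested. PLXNA2, a plexin that signals for semaphorins bound to neuropilin, rose to 165 ± 5.35 CPM with the plasmid, against 33.9 ± 1.06 CPM with the vector (adjusted p = 3.90e-18), and fell to 64.5 ± 3.24 CPM in resistant cells, against 130 ± 2.36 CPM in parental cells (adjusted p = 1.66e-11). PLXNA2 and NRP2 were thus both higher with the plasmid and both lower in resistant cells, unlike the other plexins tested. PLXNA3 was called higher in both experiments (log2 0.53 and 0.20). PLXNA1 rose with the plasmid (0.54) and was not called in resistant cells (-0.05). PLXND1 was not called with the plasmid (-0.09) and rose in resistant cells (1.07). The relation of plexins to NRP2 was not tested. SEMA3C, a secreted semaphorin, fell to 480 ± 24.1 CPM with the plasmid, against 1144 ± 21.8 CPM with the vector. SEMA3B rose in resistant cells (log2 1.02 ± 0.105). SEMA3G, singled out after its values were seen, averaged 1.04 CPM in resistant cells, from 112 counts, and 0.0388 CPM in parental cells, from 4 counts.

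Genes that inhibit angiogenesis fell in 5 of 7 tested with the plasmid and rose in none, with a median log2 fold change of -0.51. Over all genes tested 35.7% were called lower there, and the count of 5 was 3 with the 1.5-fold threshold. THBS1, thrombospondin 1, fell to 915 ± 8.04 CPM with the plasmid, against 6093 ± 73.9 CPM with the vector (log2 -2.74 ± 0.021, adjusted p = 3.05e-22). ADAMTS1, a protease that binds VEGFA, fell to 12.3 ± 0.650 CPM with the plasmid, against 46.2 ± 2.24 CPM with the vector. In resistant cells 4 inhibitors rose and 1 fell, which was THBS1 (log2 -0.13, adjusted p = 0.00296). The count that fell was 0 with library sizes alone, and 2 with DESeq2 and without resistant replicate 1. Those that rose included ADAMTS1 at 54.7 ± 1.48 CPM in resistant and 11.2 ± 0.826 CPM in parental cells (adjusted p = 6.11e-14) and SERPINF1, the inhibitor PEDF, 2.21-fold higher. Other angiogenic factors rose in 4 and fell in 2 of 6 tested with the plasmid, and fell in 2 and rose in none of 6 tested in resistant cells. With the plasmid the 2 were CXCL8 and CCN1, a matricellular protein at log2 -0.12 (adjusted p = 0.018), and 1 was left with DESeq2 and without plasmid replicate 2 or vector replicate 2. FGF2 rose to 3.12 ± 0.163 CPM with the plasmid, against 0.202 ± 0.0103 CPM with the vector. CXCL8, a chemokine that also acts on endothelium, fell in both experiments (log2 -0.60 ± 0.040 with the plasmid and -1.94 ± 0.037 in resistant cells), and ADM, adrenomedullin, fell in resistant cells (-0.36 ± 0.061).

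Genes that mature VEGFC or release VEGF from matrix moved in both directions. Of 4 VEGFC maturation genes tested, 2 rose and 1 fell with the plasmid, and 1 rose and 2 fell in resistant cells. The 1 that fell with the plasmid was FURIN, by 0.08 on the log2 scale (adjusted p = 0.0493) with overlapping libraries, a call lost with DESeq2, with the replicate block, with the 1.5-fold threshold and in 5 of 6 omissions of a library, all but that of plasmid replicate 1. Of 5 release genes tested, 1 rose and 3 fell with the plasmid, and 3 rose and 1 fell in resistant cells. CCBE1, a cofactor of VEGFC cleavage, and the protease PCSK7 rose with the plasmid (log2 1.35 ± 0.064 and 0.60 ± 0.039). ADAMTS3, the protease that CCBE1 assists, did not pass the filter in either table. In resistant cells the convertases PCSK5 and FURIN fell (-2.02 ± 0.152 and -0.60 ± 0.055). PLAU, urokinase, fell in both experiments (-1.83 ± 0.026 with the plasmid and -0.82 ± 0.044 in resistant cells). MMP14, a membrane-bound matrix protease, fell with the plasmid (-0.52 ± 0.028) and rose in resistant cells (0.57 ± 0.040).

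Among angiopoietin and TIE genes, ANGPTL4, a secreted HIF and PPAR target, rose to 82.8 ± 4.93 CPM with the plasmid, against 13.4 ± 0.717 CPM with the vector (adjusted p = 7.73e-17), and 1.57-fold in resistant cells (adjusted p = 3.11e-05). It was the 1 gene called of 2 tested with the plasmid and of 3 tested in resistant cells, where the count was 2 without parental library b. The other 5 members of that list averaged under 1 CPM over the libraries of each table. Of 3 genes tested of the related platelet-derived growth factor family, 1 rose and 2 fell with the plasmid, and 1 rose in resistant cells. The ligand PDGFA fell with the plasmid (log2 -1.14 ± 0.089), as did PDGFC (-1.17 ± 0.073), and PDGFA rose in resistant cells (1.55 ± 0.180).

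The genes of most like pattern to PGF over all 12 libraries, by the root mean square difference of log2 CPM from the control mean of the same experiment among 11610 genes, were INPP5D, KRT75, ASPA, APLP1 and TGFBI. INPP5D stood nearest at 0.400, with log2 fold changes of 0.61 with the plasmid and 3.87 in resistant cells, and the others lay at 0.821 to 0.846. With the plasmid KRT75 had 2.71, ASPA -0.27, APLP1 -0.31 and TGFBI 0.04, against 1.22 for PGF. In resistant cells KRT75 had 3.69, ASPA 5.96, APLP1 4.63 and TGFBI 3.16, against 4.38 for PGF. ASPA, APLP1 and TGFBI shared the direction of PGF in resistant cells, but lay at -0.31 to 0.04 with the plasmid. For VEGFA the genes of most like pattern included FAM107B, SEC61A1, IDH1 and RALGAPA2, at 0.0353 to 0.0484. FAM107B, the nearest, had log2 fold changes of -0.78 with the plasmid and -0.01 in resistant cells, and IDH1 had -0.85 with the plasmid and 0.02 in resistant cells. These likenesses are descriptions over few libraries.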

How the data were processed

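The authors deposited 2 tables of raw counts per gene. Per the file headers, read pairs of the overexpression libraries were counted over exons with featureCounts 2.0.1 against Ensembl release 107 of GRCh38, with no strand option, from alignments named hisat. How the resistance table was aligned and counted is not given in the sources used here. The submitters' processing notes name hg38. The libraries were strand-marking per the labels' protocols.

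The parental columns are headed NC with a number, which no parental title holds. Their place beside the resistant columns, with the vector columns elsewhere, led to the assignment, which is an inference. No label states separate cultures, and p-values therefore reflect only library-to-library spread, which may be technical. All replicate pairs differed beyond sampling noise (chi-square per degree of freedom of 1.54 to 12.2).

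Genes passing filterByExpr in an experiment were fitted by edgeR 4.0.16 in R 4.3.3 (TMM factors, quasi-likelihood test). The Benjamini-Hochberg adjustment covered all 16950 and 16875 genes tested. Alternatives were other scalings and filters, DESeq2 1.42.0, limma-voom (limma 3.58.1), a 1.5-fold threshold, a replicate block and omission of each library. On simulated data with known changes, the procedure recovered 88.8% of 2-fold changes in the overexpression design over 16642 genes and 74.8% in the resistance design over 16522 genes, with 7.00% and 8.75% of calls unchanged genes. Only a small share of genes, none of very low count, was changed in the simulations. In the data 72.2% and 54.5% of genes were called, so these rates may not carry over.

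The members and lists were chosen with earlier results of these data known. Genes named are the 7 members, VEGFD, KDR and FLT4, up to 2 called genes per list and comparison with the smallest p and a mean of at least 1 CPM, and the 5 genes of most like pattern to PGF and to VEGFA (log2 CPM with a prior count of 2). One gene that this rule names is not reported here. VHL, CCN1, GCM1, SEMA3G, FURIN with the plasmid and THBS1 in resistant cells were named after their values were seen. Symbols matched 61757 of 61860 and 62700 of 62700 identifiers. Positions and exon lengths are those of GENCODE 29, and promoter sequences those of RefSeq on GRCh38.p14.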

Additional observations from a re-analysis of the deposited data

How the results depend on the processing

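No called direction of a member reversed under the alternatives run. The 1.5-fold threshold cut the genes called to 3818 in the overexpression experiment and 2107 in the resistance experiment, and the members called to 3 and 2. Omitting single libraries gave 11696 to 12389 and 8331 to 9024 genes called, with 5 to 6 members called in the overexpression experiment and 5 in each omission of the resistance experiment. VEGFB with the plasmid was the member whose call was lost in 3 of these omissions and with DESeq2. PGF ranged from 1.17 to 1.26 with the plasmid and from 4.22 to 4.48 in resistant cells over these omissions. Without a low-count filter FLT1 had log2 fold changes of 1.61 with the plasmid, which was called, and -1.62 in resistant cells, which was not. The replicate block called 12070 genes with the plasmid and all 6 tested members. Same-numbered libraries there had deviations that correlated at -0.067 to -0.043, so the numbers were not taken as pairs, and no such fit was possible for the resistance experiment because the parental columns are tied to no number. STAT3 with the plasmid was called at -0.08 with library sizes alone and at -0.06 with a filter at 1 CPM in 3 libraries. With library sizes alone in the resistance experiment, the semaphorins and plexins called lower numbered 1, the oxygen-sensing genes called lower 2, the other transcription factors called higher 3 and the metallothionein list called higher 2. The causes were not tested. Depth limits FLT1, FLT4 and KDR, which rest on few or no counts.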
